A study of Arabidopsis thaliana with 32 samples.

Results

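The genes described here are 49 nuclear genes of Arabidopsis thaliana that encode the light-harvesting antennae, the photosystems, the photosynthetic electron transport chain with its ATP synthase, and enzymes of the Calvin cycle, without the small subunits of Rubisco. They were chosen by gene identifier, and every line of 8 deposited comparison tables that named one of them, alone or with neighbouring genes, was taken. Of the 49 members, 27 were called in at least 1 table and 22 in none, among 5162 genes called anywhere in the series. The share of all tested genes called in at least 1 table is not known, so shares are given per comparison below. Messenger RNA was sequenced from dissected roots of light-grown seedlings of the natural accessions Col-0 and WS, raised on Phytagel plates with mineral medium on the International Space Station or in a ground chamber that replayed the station's environment 48 h later. The 8 groups were Col-0 at 4 days in flight, Col-0 at 4 days on the ground, Col-0 at 8 days in flight, Col-0 at 8 days on the ground, and the same 4 groups of WS, with 4 replicates in each and 32 libraries in all. Each replicate combined several roots, 5 to 8 for 4 day seedlings but 2 to 3 for 8 day ones. All seedlings, flight and ground, stood upright under overhead light of 100 to 135 µmol per square metre and second and were fixed in RNAlater. No genotype other than the 2 accessions and no added agent is given in the labels.

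In leaves, light-harvesting complexes of the LHCB and LHCA families bind chlorophyll and pass excitation to photosystem II and photosystem I, plastocyanin and ferredoxin carry electrons onward, and the Calvin cycle fixes carbon with the ATP and NADPH that result. The genes for these proteins lie in the nucleus and are switched on by light and by chloroplast development. A root kept in light can green weakly, most of all in its upper part, and the HY5 and GLK transcription factors are known to take part in that greening.

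The tables hold 1 pooled value per group, in FPKM, which is fragments per kilobase of transcript scaled to the mapped fragments of the library, and no value per replicate, so the spread and the depth of single libraries are unknown. Values per member are therefore group levels, and the value after ± is the standard error of the log2 fold change implied by the authors' deposited test statistic. A member counts as called where the authors' Cuffdiff q-value was at most 0.05. The authors' deposited tables hold called loci only, so a member that is not called in a table has no value there and cannot be said to be unchanged. In bulk roots, fewer cells of a green type and less RNA per cell cannot be told apart. Of 12 root marker genes, 5 were called in some table, among them the root peroxidase gene AT3G01190, at 164 FPKM in 4 day ground Col-0 roots in the authors' deposited flight table. Of 14 shoot markers that do not act in the plastid, 12 were called in no table, 2 were called lower at 8 days and 1 of these 2 higher in flight.

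The members with the largest change in flight were LHCB2.1 and LHCB2.2, which encode the same kind of antenna protein of photosystem II and lie near each other on chromosome 2. In TAIR10 coordinates of the authors' deposited tables, LHCB2.1 (AT2G05100) spans chr2:1823240-1824425 and LHCB2.2 (AT2G05070) chr2:1799234-1800392. Their first 60 coding bases, from the RefSeq TAIR10.1 genome, are shown because reads may not tell the genes apart, and capitals mark the 2 positions at which they differ.
LHCB2.1: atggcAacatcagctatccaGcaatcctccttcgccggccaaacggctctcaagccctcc
LHCB2.2: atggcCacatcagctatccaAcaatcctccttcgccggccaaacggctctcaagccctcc
The stretches lie on the minus strand at chr2:1824272-1824331 and chr2:1800270-1800329. Over the whole coding sequence the genes are 96.6% identical, and 41.1% of all 50 nt windows of LHCB2.1 also occur in LHCB2.2. LHCB2.3, on another chromosome and never called, is 85.5% identical to LHCB2.1 and shares 0 such windows with it. Among the LHCB1 genes, LHCB1.3 is 96.1% identical to LHCB1.1 and 96.4% to LHCB1.2, so the values of these genes are also uncertain.

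The 250 bases before the annotated start of the same pair are shown next. Both genes were called lower in 8 day Col-0 flight roots, against ground and against 4 days. For flight in 4 day Col-0 roots only LHCB2.1 was called, and shared reads may link their values. Runs of 12 or more bases that both promoters hold are in capitals.
LHCB2.1: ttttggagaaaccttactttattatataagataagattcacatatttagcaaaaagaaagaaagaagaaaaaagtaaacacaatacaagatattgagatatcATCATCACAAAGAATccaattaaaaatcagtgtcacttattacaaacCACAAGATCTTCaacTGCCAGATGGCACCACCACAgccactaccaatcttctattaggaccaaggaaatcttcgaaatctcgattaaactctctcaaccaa
LHCB2.2: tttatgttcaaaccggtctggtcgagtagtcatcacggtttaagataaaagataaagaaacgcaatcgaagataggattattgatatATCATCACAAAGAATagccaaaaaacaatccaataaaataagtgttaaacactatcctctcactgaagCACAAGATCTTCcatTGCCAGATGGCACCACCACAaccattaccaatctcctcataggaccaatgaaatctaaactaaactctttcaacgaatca
They come from the minus strand of TAIR10.1, at chr2:1824481-1824730 and chr2:1800473-1800722, and 47 of the 250 bases of each lie in 3 shared runs. The next pair of promoters belongs to RCA (chr2:16569430-16573548 in TAIR10) and PSBQ2 (AT4G05180, chr4:2671822-2673243), which were called in more tables than any other member, with light and clock motifs in capitals.
RCA: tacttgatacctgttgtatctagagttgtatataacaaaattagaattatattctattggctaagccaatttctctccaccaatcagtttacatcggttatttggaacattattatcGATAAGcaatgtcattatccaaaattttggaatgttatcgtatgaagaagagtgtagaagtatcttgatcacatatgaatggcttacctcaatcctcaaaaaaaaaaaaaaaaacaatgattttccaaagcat
PSBQ2: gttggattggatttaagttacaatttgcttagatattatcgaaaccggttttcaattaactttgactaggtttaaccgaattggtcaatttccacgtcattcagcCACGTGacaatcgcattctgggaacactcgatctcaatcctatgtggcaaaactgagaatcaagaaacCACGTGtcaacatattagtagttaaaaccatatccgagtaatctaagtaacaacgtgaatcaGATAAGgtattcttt
These also lie on the minus strand, at chr2:16573693-16573942 and chr4:2673244-2673493. The RCA promoter holds 1 I-box and the PSBQ2 promoter holds 2 G-boxes and 1 I-box. Both strands were searched for the G-box CACGTG, the I-box GATAAG, the CCA1 binding site AAAAATCT and the evening element AAAATATCT, and none of these strings contains another. A G-box was present in the same window of 9 of the 49 members (18.4%) and of 6.49% of 27443 protein-coding genes, and an I-box in 13 members (26.5%) and 12.3% of all. Members that were called and those that were not held a G-box about as often, 5 of 27 (18.5%) and 4 of 22 (18.2%). The I-box was found in 8 of the 27 (29.6%) and 5 of the 22 (22.7%). The CCA1 site was found in 5 members (10.2%) against 6.69% of all genes, and the evening element in 1 member (2.04%) against 2.36%. These matches describe the letters of the windows and were not tested.

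In 8 day Col-0 roots, 19 of the 49 members (38.8%) were lower in flight and 0 were higher, where 2.8% of all 20035 loci tested were called lower. The falls took in 10 of the 17 antenna genes and 9 of the other 32 members. The median log2 change of the called members was -0.74, beside -0.53 over the 560 loci called lower in that table. None of the 4 Calvin cycle members was among them. For 1 of these, RCA, the authors' deposited age tables gave 16.4 FPKM on the ground and 11.3 in flight at 8 days. The rebuilt log2 change was -0.53, from tables normalised separately, and was not tested.

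**Figure D1:**
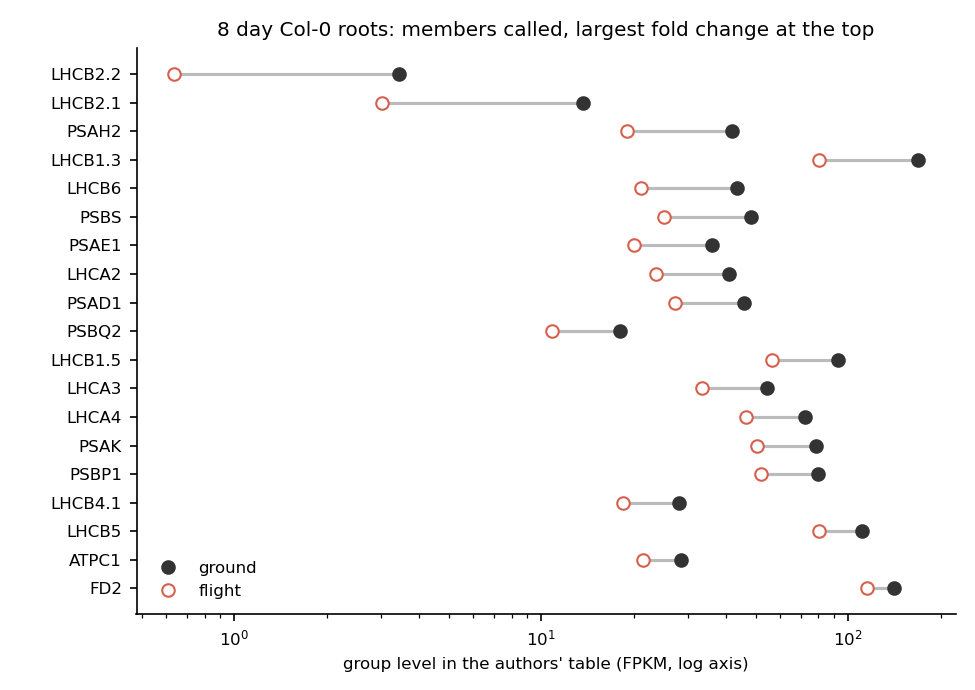
Group levels (FPKM, log axis) of the 19 members called in 8 day Col-0 roots, ground as filled and flight as open points, sorted by fold change, from the authors' deposited table. Every flight level lies below its ground level, and the gap is widest for LHCB2.2 and LHCB2.1.

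The main antenna of photosystem II is a trimer of LHCB1, LHCB2 and LHCB3 proteins, and 4 of its 9 genes fell. LHCB2.2 stood at 3.43 FPKM on the ground and 0.634 in flight in the authors' deposited table, a log2 change of -2.43 ± 0.93 (q-value 0.00263). LHCB2.1 stood at 13.6 FPKM on the ground and 3.02 in flight in the authors' deposited table, a log2 change of -2.17 ± 0.48, so the ground level was 4.51 times that in flight. With a pseudocount of 1 FPKM the log2 change of LHCB2.2 was -1.44 and that of LHCB2.1 -1.86, and both genes had lower levels than the other antenna genes called. LHCB1.3 (AT1G29930), at 169 FPKM on the ground and 80.1 in flight in the authors' deposited table, was the highest member of this comparison on the ground and fell by 1.08 ± 0.28 on the log2 scale. For LHCB1.5 (AT2G34420) the authors' deposited table gave 92.6 and 56.4 FPKM, a log2 change of -0.72 ± 0.34, and its locus spans the neighbouring antenna gene LHCB1.4. LHCB1.1, LHCB1.2, LHCB1.4, LHCB2.3 and LHCB3 were not called.

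The minor antennae LHCB4, LHCB5 and LHCB6 join the trimers to the photosystem II core, and 3 of their 4 genes fell. LHCB6 (AT1G15820) went from 43.4 FPKM on the ground to 21.1 in flight in the authors' deposited table, a log2 change of -1.04 ± 0.37. LHCB4.1 (AT5G01530) went from 28.1 to 18.5 FPKM (log2 change -0.60 ± 0.29) in the authors' deposited table. The locus of LHCB5 (AT4G10340), which the authors' deposited table lists together with AT4G10330, went from 111 to 80.5 FPKM (log2 change -0.46 ± 0.25). LHCA1 to LHCA4 form the antenna belt of photosystem I, and 3 of the 4 genes fell by similar amounts. In the authors' deposited table LHCA2 went from 41.0 to 23.6 FPKM (-0.80 ± 0.25), LHCA3 from 54.5 to 33.5 (-0.70 ± 0.22) and LHCA4 from 72.4 to 46.4 (-0.64 ± 0.25), the values in brackets being log2 changes. The gene for the remaining belt protein, LHCA1, was not called.

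Of 11 genes for subunits of photosystem I, 4 fell in flight. PSAD1 and PSAE1 encode stromal subunits at the ferredoxin docking site, and went from 45.8 to 27.2 FPKM (log2 change -0.75 ± 0.26) and from 36.0 to 20.1 FPKM (-0.84 ± 0.31) in the authors' deposited table. PSAK (AT1G30380), a membrane subunit beside the antenna, went from 78.5 to 50.5 FPKM in the authors' deposited table, a log2 change of -0.64 ± 0.23. PSAH2 (AT1G52230), which encodes a subunit at which mobile antenna can bind, was listed at 41.9 and 19.1 FPKM (-1.13 ± 0.64) in the authors' deposited table. Its locus spans 14 other annotated genes, so that value may not belong to PSAH2 alone. Of 10 genes for photosystem II proteins, 3 fell. PSBS (AT1G44575), whose protein senses lumen acidity and starts the dissipation of excess light energy, went from 48.2 to 25.1 FPKM in the authors' deposited table, a log2 change of -0.94 ± 0.28. The oxygen-evolving complex proteins PSBP1 and PSBQ2 had log2 changes of -0.62 ± 0.36 (80.0 to 52.0 FPKM) and -0.74 ± 0.33 (18.1 to 10.9 FPKM) in the authors' deposited table. The smallest falls were in electron transport and ATP synthase, with 2 of 7 genes. FD2 (AT1G60950), the main leaf ferredoxin gene, went from 141 to 115 FPKM (log2 change -0.30 ± 0.19) and ATPC1, for the gamma subunit of the chloroplast ATP synthase, from 28.6 to 21.5 FPKM (-0.41 ± 0.23) in the authors' deposited table.

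Of the 19 called members, 10 lie in loci that overlap no other annotated gene, among them both LHCB2 genes, LHCB4.1, LHCA2, PSAD1, PSAK, PSBQ2, PSBS, FD2 and ATPC1. Direction also moved with transcript length among called genes listed alone at their locus in this table. Of these, 72 of 87 under 800 nt (82.8%) and 426 of 618 from 800 to under 2500 nt (68.9%) were lower in flight. The called members were 3 of 6 with transcripts under 800 nt and 16 of 43 in the middle class, all of them lower, and the part of length in their result was not tested. Shoot markers outside the plastid had 0 of 14 called in this comparison. Of 12 root markers 2 were higher in flight, XTH17 at 0.46 ± 0.23 and SCR at 0.40 ± 0.24, and the peroxidase gene AT3G01190 was lower at -0.54 ± 0.18 on the log2 scale in the authors' deposited table. The part of root cell types in the members' result was not tested.

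**Figure D2:**
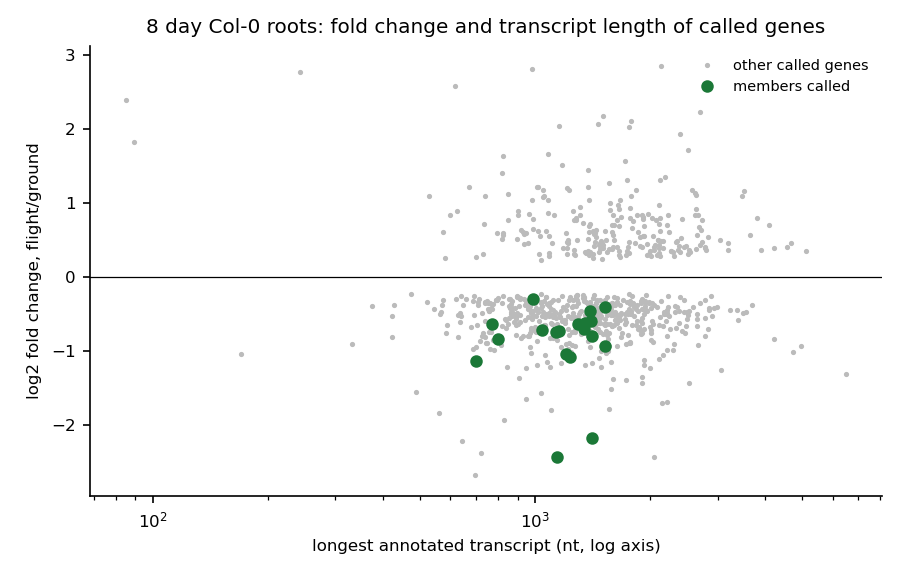
Log2 fold change of flight over ground in 8 day Col-0 roots against the longest annotated transcript (nt, log axis), from the authors' deposited table. Grey points are other called genes listed alone at their locus. Green points are all called members, among them LHCB5, which is listed together with AT4G10330. The members lie below 0 at lengths at which other called genes lie on both sides of 0.

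In 4 day Col-0 roots, 8 of the 49 members (16.3%) were lower in flight and 0 were higher, beside 4.11% of 19612 loci tested that were called lower. Their log2 changes lay within a narrow range, from -0.93 to -0.50, with a median of -0.62 beside -0.70 over all 806 loci called lower. The antenna had 1 of its 17 genes among them. PSBS went from 51.4 FPKM on the ground to 27.0 in flight in the authors' deposited table, a log2 change of -0.93 ± 0.35 (q-value 0.00185). LHCB2.1 was the called antenna gene, at 11.7 and 6.81 FPKM in the authors' deposited table, with a log2 change of -0.78 ± 0.49. Photosystem I was represented by PSAD1, from 34.6 to 24.4 FPKM (-0.50 ± 0.35), and by PSAF, which helps plastocyanin dock, from 83.1 to 54.7 FPKM (-0.60 ± 0.38) in the authors' deposited table. The PSAF locus overlaps another annotated gene, AT1G31320, so its value may not belong to PSAF alone. PSBY (AT1G67740), a small photosystem II protein, went from 20.6 to 12.9 FPKM in the authors' deposited table, a log2 change of -0.68 ± 0.38. In electron transport, FD2 went from 131 to 87.7 FPKM (-0.57 ± 0.27) and ATPC1 from 40.5 to 26.1 FPKM (-0.64 ± 0.29) in the authors' deposited table. GAPB (AT1G42970), a subunit of the Calvin cycle glyceraldehyde-phosphate dehydrogenase, went from 17.6 to 11.9 FPKM in the authors' deposited table (log2 change -0.56 ± 0.34) and was the 1 Calvin cycle member called. With the q-value limit lowered to 0.01, 3 of the 8 were left. All 8 have transcripts of 800 to under 2500 nt. Among called genes listed alone at their locus, 60.1% of 1045 in that class were lower, against 17.9% of 123 under 800 nt. Of the 12 root markers 3 were lower and 1 higher in this comparison, AT3G01190 with a log2 change of -0.53 ± 0.24 in the authors' deposited table, and of the 14 shoot markers 0 were called. Their part was not tested.

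The 4 and 8 day comparisons of Col-0 share no library, and 5 members were lower in both, LHCB2.1, PSAD1, PSBS, FD2 and ATPC1. They are 62.5% of the members called at 4 days and 26.3% of those called at 8 days. Of all genes called lower, 228 were shared by the same 2 tables, which is 26.7% of the 853 at 4 days and 38.6% of the 591 at 8 days. The members' shared calls were thus a larger share of the 4 day calls and a smaller share of the 8 day calls than over all genes, and this was not tested. For PSBS the 2 falls were nearly equal, with a difference of -0.01 ± 0.45 on the log2 scale. LHCB2.1 had the largest difference between ages, its log2 change at 8 days lying 1.39 ± 0.68 below that at 4 days as -0.78 went to -2.17 in the authors' deposited tables. That difference had an unadjusted p of 0.0417 and an adjusted p of 0.527 (normal approximation with the implied standard errors, Benjamini-Hochberg over 2462 differences). Over all pairs of tables that share no library, members gave 11 such differences, of which 0 passed adjustment and 1 had an unadjusted p under 0.05. A miss does not show that the changes were alike, and a member called in 1 table of a pair only could not be tested.

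**Figure D3:**
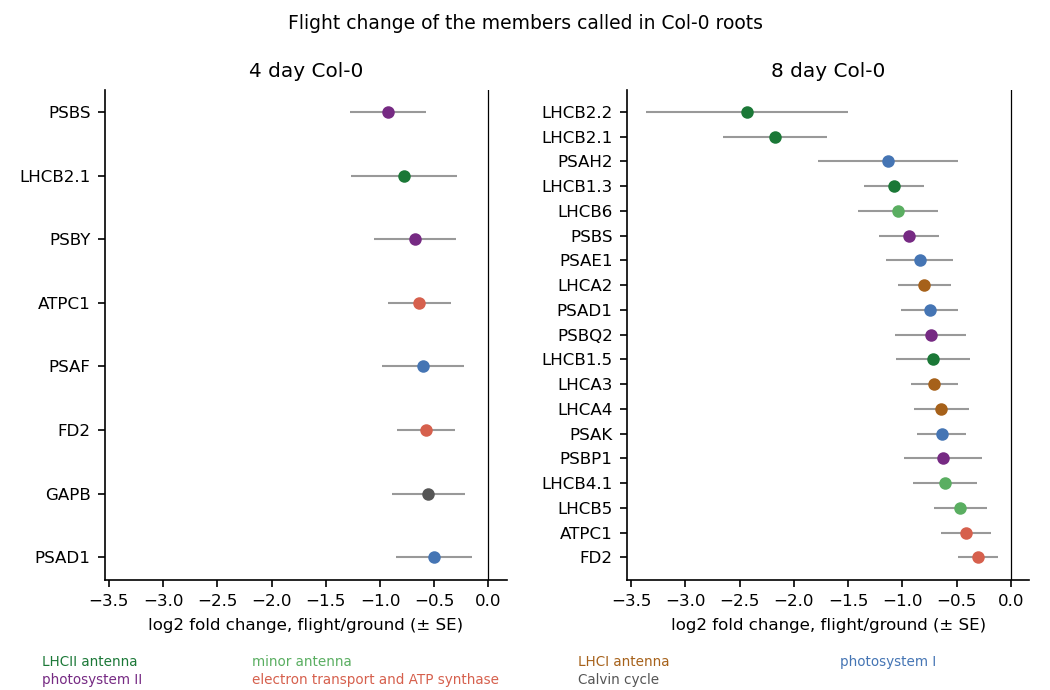
Log2 fold change of flight over ground (points, with bars for the implied standard error) of the members called in Col-0 roots at 4 and 8 days, coloured by role, from the authors' deposited tables. All 8 members on the left and all 19 on the right lie below 0, and LHCB2.2 and LHCB2.1 lie farthest from it at 8 days.

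In WS roots, 1 member was called for flight at each age, and in opposite directions. At 4 days RCA (AT2G39730), which encodes Rubisco activase, the chaperone that frees Rubisco of inhibitory sugar phosphates, was higher in flight, with 18.1 FPKM on the ground and 40.5 in flight in the authors' deposited table. Its log2 change there was 1.16 ± 0.56 (q-value 0.0197), and 0.352% of 17899 loci tested were called higher. So 1 of 49 members (2.04%) rose and 0 fell, where 0.363% of loci tested were called lower, so 0 is near the background. No antenna or photosystem gene was called, in a table with 65 loci called lower and 63 higher. The shoot epidermis marker PDF1 (AT2G42840) was higher in the same comparison, at 109 FPKM on the ground and 283 in flight in the authors' deposited table (log2 change 1.38 ± 0.33). It was the 1 of 14 shoot markers called there, and the root peroxidase gene AT3G01190 was lower, at 124 and 76.1 FPKM in the authors' deposited table. The part of either in the RCA value was not tested. All 4 genes for the small subunit of Rubisco rose too, with log2 changes from 0.98 to 1.61 in the authors' deposited table. At 8 days PSAG (AT1G55670), a membrane subunit of photosystem I that borders the antenna belt, was lower in flight, at 32.3 and 21.1 FPKM in the authors' deposited table. Its log2 change was -0.61 ± 0.36 (q-value 0.0283), where 2.75% of 17365 loci tested were called lower, so 1 of 49 members is near the background. The PSAG transcript has 780 nt. Of called genes listed alone at their locus in this comparison, 82.4% of 85 under 800 nt were lower in flight. The share was 65.6% of 535 from 800 to under 2500 nt and 7.89% of 190 at 2500 nt or more. The part of length in the PSAG value was not tested. The members that fell in Col-0 flight roots at 8 days have no value in this WS table, so for none of these members could the change from ground to flight be tested between the accessions.

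Of the member calls with age, all but 1 were lower at 8 than at 4 days. In WS roots in flight 10 of the 49 members (20.4%) fell and 0 rose, with 3.42% of 17695 loci tested called lower at 8 days. The largest fall was that of RCA, from 41.6 FPKM at 4 days to 6.62 at 8 days in the authors' deposited table, a log2 change of -2.65 ± 0.56. The 2 subunits of the chloroplast glyceraldehyde-phosphate dehydrogenase fell with it, GAPA1 from 30.5 to 8.98 FPKM (-1.76 ± 0.91) and GAPB from 13.6 to 6.41 FPKM (-1.08 ± 0.47) in the authors' deposited table. Thus 3 of the 4 Calvin cycle members were called, and phosphoribulokinase (PRK) was not. Among photosystem I genes PSAG went from 48.3 to 19.3 FPKM (-1.32 ± 0.44) and PSAO (AT1G08380) had a log2 change of -0.91 ± 0.56 in the authors' deposited table. The photosystem II genes PSBQ2, PSBR and PSBS had log2 changes of -1.04 ± 0.55, -1.02 ± 0.62 and -0.92 ± 0.45 in the authors' deposited table. PSBR (AT1G79040), a small protein at the oxygen-evolving complex, stood at 104 FPKM at 8 days and at 211 at 4 days, the latter the highest level listed for any member in the authors' deposited tables. Of the antenna genes, 2 of 17 were called, LHCA2 (-0.77 ± 0.48) and the locus of LHCB4.1 with AT5G01520 (-0.70 ± 0.40) in the authors' deposited table. PSAG and PSBR have transcripts under 800 nt. Of called genes listed alone at their locus, 74% of 127 in that class were lower at 8 days. The share was 49.3% of 741 from 800 to under 2500 nt and 76.2% of 126 at 2500 nt or more. The part of length was not tested. PDF1 also fell in this comparison, from 291 to 147 FPKM in the authors' deposited table, while of the root markers SCR fell (log2 change -1.10 ± 0.41) and WER rose (0.97 ± 0.36). Their part in the members' values was not tested.

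On the ground in WS, 2 of the 49 members (4.08%) fell with age, near the background of 3.27% of 18017 loci tested that were called lower. RCA went from 19.6 to 7.67 FPKM (log2 change -1.36 ± 0.55) and PSBQ2 from 13.9 to 7.13 FPKM (-0.96 ± 0.56) in the authors' deposited table. The fall of RCA was smaller on the ground than in flight by 1.29 ± 0.79 on the log2 scale, with an adjusted p of 0.889 by the same normal approximation, so no difference was shown. For PSBQ2 the corresponding difference was 0.08 ± 0.78. At 8 days the levels of RCA in the authors' deposited age tables were 7.67 FPKM on the ground and 6.62 in flight, and those of PSBQ2 were 7.13 and 7.10, each from a table normalised on its own.

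In Col-0 roots in flight, 5 members were lower at 8 days and 0 were higher, beside 3.45% of 20007 loci tested that were called lower. RCA went from 27.9 to 11.3 FPKM (-1.30 ± 0.45) and PSBQ2 from 19.8 to 10.6 FPKM (-0.90 ± 0.36) in the authors' deposited table. The other 3 were antenna genes, LHCB2.2 from 3.06 to 0.619 FPKM (-2.31 ± 1.06), LHCB2.1 from 7.06 to 2.95 FPKM (-1.26 ± 0.58) and LHCB1.5 from 92.6 to 55.1 FPKM (-0.75 ± 0.36) in the authors' deposited table. With a pseudocount of 1 FPKM the log2 change of LHCB2.2 was -1.33. All but RCA were also called lower in flight at 8 days, and the 2 comparisons share the 8 day flight libraries. On the ground in Col-0, 3 members fell with age and 1 rose, where 5.54% and 5.69% of 19905 loci tested were called lower and higher. The members' shares were 6.12% lower, near that background, and 2.04% higher, below it. Markers moved in the same comparison, where the shoot marker CER3 and the root markers XTH17, SCR and AT3G01190 were lower, with log2 changes of -0.71, -0.92, -0.85 and -0.66, and the root marker WER was higher, at 40.5 FPKM at 4 days and 86.9 at 8 days, in the authors' deposited table. Their part in the members' values was not tested. RCA went from 35.3 to 16.4 FPKM (-1.10 ± 0.34), ATPC1 from 41.4 to 27.6 FPKM (-0.58 ± 0.26) and GAPB from 17.9 to 13.0 FPKM (-0.47 ± 0.30) in the authors' deposited table. The Col-0 locus of RCA overlaps another annotated gene, AT2G39725, so its Col-0 values in flight and on the ground may not belong to RCA alone. PSAE1 rose from 24.4 to 34.7 FPKM, a log2 change of 0.51 ± 0.34 in the authors' deposited table. It was the 1 member to rise with age in any table. Its transcript has 798 nt and its locus overlaps AT4G28740 and AT4G28755, so the value may not belong to PSAE1 alone. Of called genes listed alone at their locus there, 26.9% of 167 under 800 nt were lower at 8 days. From 800 to under 2500 nt, 50.4% of 1632 were lower, and the part of length in the PSAE1 value was not tested. No antenna gene was called in this ground comparison. In the flight tables of Col-0 the ground level of LHCB2.1 was 11.7 FPKM at 4 days and 13.6 at 8 days, while the flight level was 6.81 and 3.02 in the authors' deposited tables, which were normalised separately.

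RCA was lower at 8 days in both accessions and both growth conditions, and no difference of its falls between accessions was shown. The difference of WS from Col-0 was -1.35 ± 0.72 in flight and -0.25 ± 0.65 on the ground, with adjusted p-values of 0.66 and 0.9997 by the normal approximation. The spread of RCA levels over the groups ran from 6.62 FPKM in 8 day flight WS roots to 41.6 in 4 day flight WS roots in the authors' deposited tables. In the order of levels, 4 day groups of each accession stood above its 8 day groups. PSBQ2, called in 4 tables, had log2 falls with age of -0.90 in flight Col-0, -1.04 in flight WS and -0.96 in ground WS in the authors' deposited tables. LHCB2.1, PSBS, ATPC1 and GAPB were each called in 3 tables, and lower in every one of them.

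**Figure D4:**
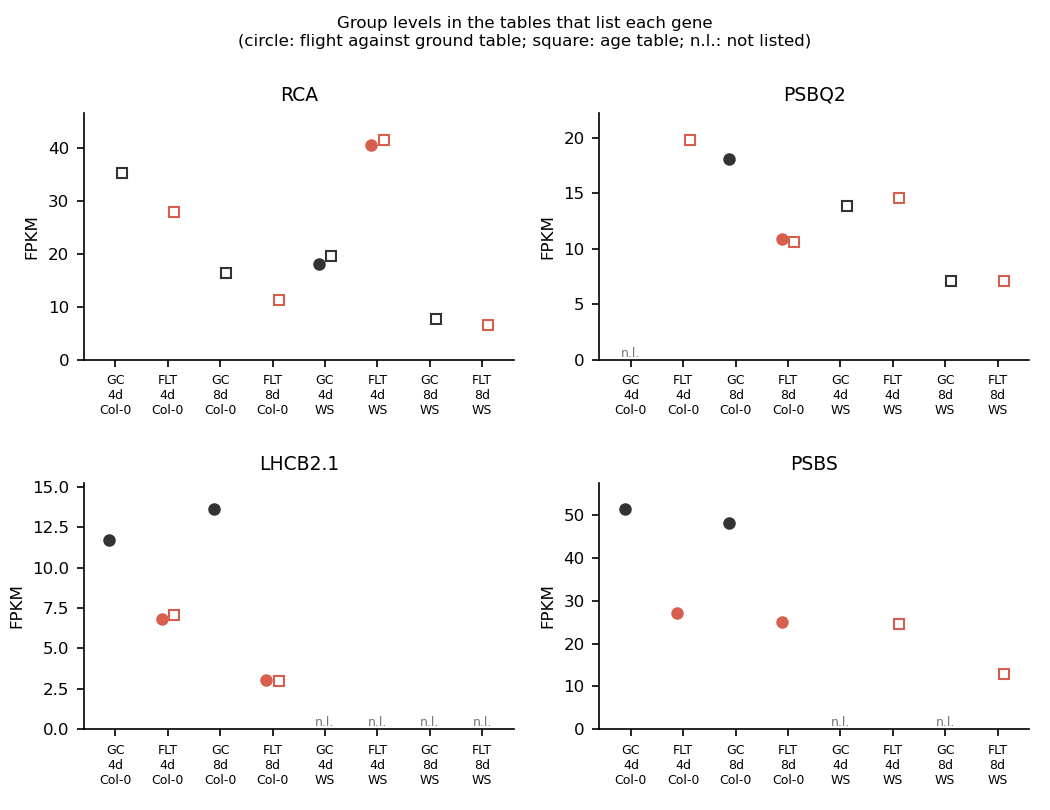
Levels (FPKM, linear axis from 0) of RCA, PSBQ2, LHCB2.1 and PSBS in each group, black for ground and red for flight, with circles from the flight tables and squares from the age tables of the authors. RCA is high in 4 day groups and highest in 4 day flight WS roots, while LHCB2.1 and PSBS are lower in flight than on the ground in Col-0 at both ages.

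Across the 8 tables the 27 called members gave 50 calls, of which 48 were lower in flight or at 8 days and 2 were higher, RCA in 4 day WS flight roots and PSAE1 with age in ground Col-0 roots. The libraries of each group enter 2 tables, so the calls are not independent. Over all loci, calls ran from 560 lower and 252 higher for flight in 8 day Col-0 to 1102 lower and 1133 higher for age in ground Col-0. Of the 22 members never called, 5 belong to the main antenna, 5 to photosystem II, 5 to electron transport and ATP synthase, 4 to photosystem I, 1 to the minor antennae, 1 to the photosystem I antenna and 1 to the Calvin cycle. They include both plastocyanin genes (PETE1 and PETE2), the cytochrome complex gene PETC, the leaf ferredoxin reductase gene FNR1 and both PSBO genes of the oxygen-evolving complex.

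**Figure D5:**
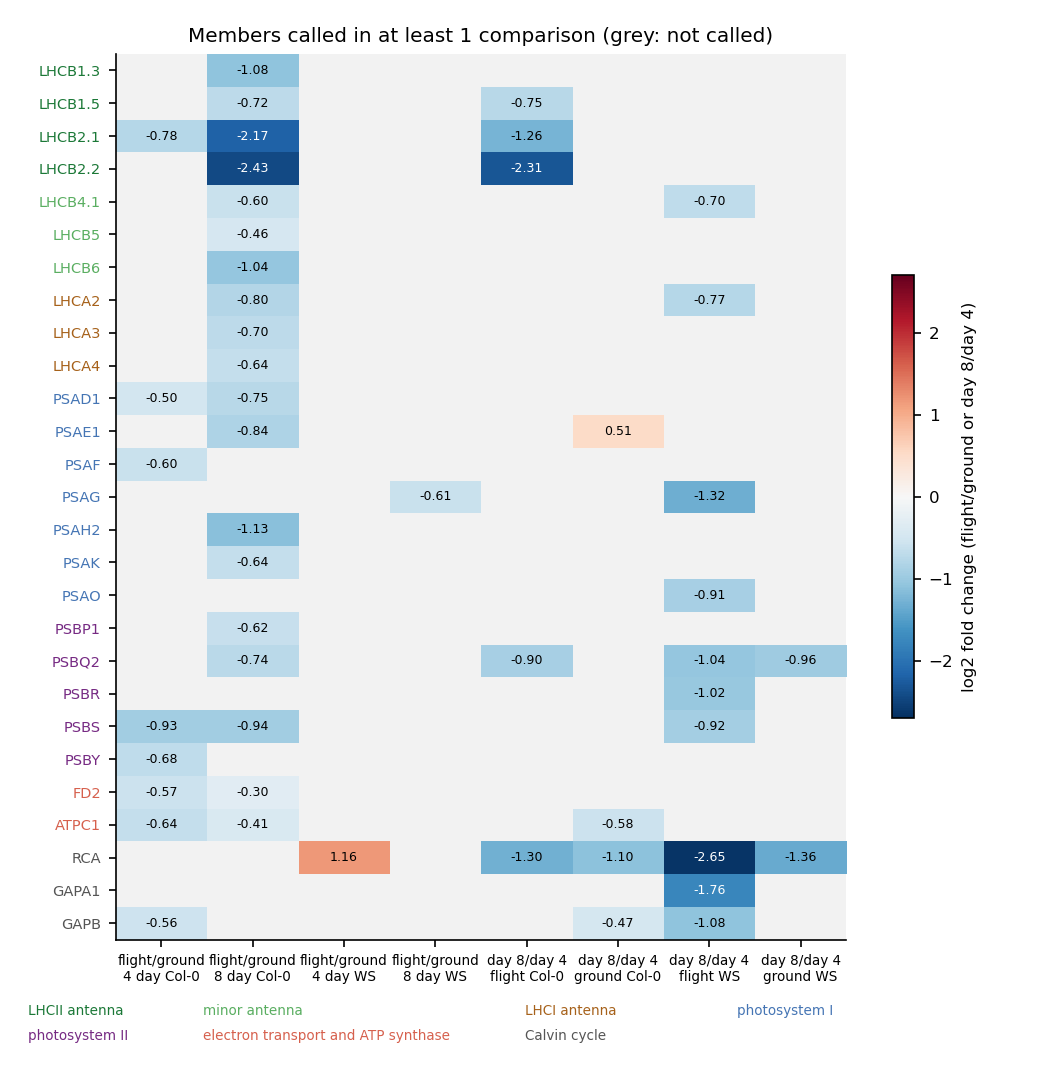
Log2 fold changes of the 27 called members in the 8 comparisons (blue lower, red higher in flight or at 8 days, grey not called), gene names coloured by role, from the authors' deposited tables. The column for 8 day Col-0 flight holds 19 blue cells, and 2 cells of all 50 are red.

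Other genes of the pathway were called as follows. For flight in Col-0, 4.11% of all loci tested were called lower and 3.1% higher at 4 days. At 8 days these shares were 2.8% and 1.26%. Of 22 further photosynthesis genes, 3 fell and 0 rose in flight in 4 day Col-0 roots, the ferredoxin gene FD1 at -0.63 ± 0.28, the transketolase gene TKL1 at -0.67 ± 0.31 and the cyclic electron flow gene PGR5 at -0.51 ± 0.32 on the log2 scale in the authors' deposited table. In 8 day Col-0 roots 1 of the 22 fell, GAPA2, at -0.63 ± 0.36 in the authors' deposited table, and this count is near the share of all loci. Of 16 chlorophyll synthesis genes, 4 fell and 0 rose in flight in 4 day Col-0 roots, led by GUN4, which activates magnesium chelatase, at -1.42 ± 0.75 in the authors' deposited table. None of the 16 was called in flight at 8 days in Col-0 by the authors' Cuffdiff test, which is also near the share of all loci. Of 12 regulators, HY5, a light-signalling factor that binds promoters of photosynthesis genes, fell at both ages in Col-0, with log2 changes of -0.55 ± 0.30 at 4 days and -0.55 ± 0.21 at 8 days in the authors' deposited tables. In all, 3 of the 12 regulators fell and 1 rose in flight at 4 days in Col-0, and 2 fell at 8 days. In WS flight 0 of 12 were called, near the background of 0.363% lower and 0.352% higher at 4 days. At 8 days in WS, 2.75% of all loci were called lower and 2.36% higher. GLK1 and GLK2, which act on antenna and chlorophyll genes, were called in no table. Of the 4 Rubisco small subunit genes, RBCS1A was the 1 called in Col-0 flight, with log2 changes of -0.35 ± 0.25 at 4 days and -0.75 ± 0.18 at 8 days in the authors' deposited tables. The tables list 0 loci of the plastid genome, so they hold no value for photosynthesis genes encoded there.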

How the data were processed

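The 8 tables deposited by the authors were used, and the reads were not. Per the labels' protocols, roots were dissected from preserved seedlings, and libraries were made from 10 ng of RNA with a full-length cDNA kit and 8 PCR cycles, which does not mark the strand. Per the submitters' processing notes, reads were handled with STAR 2.5.1b, Trimmomatic 0.36, Picard, FastQC 0.11.2, Cuffdiff and Cufflinks on TAIR10, with settings not given in the sources used here. The deposited FPKM values are the authors' group levels, and each log2 fold change deposited by the authors compares a pair of them. Signs were set here so that positive means higher in flight or at 8 days. The test statistic is a score the authors deposited, and the p-value and q-value per locus are the authors' Cuffdiff results, adjusted by them within each table.

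Standard errors are the fold change divided by the deposited statistic. How many loci each table tested was worked out from p-value, rank and q-value. Differences of fold changes between tables that share no library were set against a normal distribution, with errors taken as known. No exact test was possible without values per replicate. For many calls the Cuffdiff p-value is smaller than a normal distribution gives for the same statistic. An example is PSAD1 in 4 day Col-0 flight, with a statistic of -1.43 and a Cuffdiff p-value of 0.0032. The implied errors may thus be too wide, and the normal approximation may miss differences. The number of loci tested and the differences between tables were checked on simulated data, the latter with normal errors of the implied size. The simulated true differences were much larger than their errors, and genes were not selected for calls in both tables. That check therefore does not show how often differences of the size seen in the members would be found. The other steps were not checked on simulated data. Each table was normalised separately, and a group listed in 2 tables had a median log2 ratio between them of -0.12 to 0.13. Positions of Col-0 loci overlapped the RefSeq TAIR10.1 gene of the same name in 3406 of 3406 cases, and those of WS in 109 of 2033, so no WS positions are given. Promoters, coding sequences and transcript lengths come from RefSeq TAIR10.1, in which all 49 members were found. Members, lists and naming rule (members by role, up to 4 called genes of other lists) were chosen with earlier results of these data known. Nothing states whether replicates came from separate plates, so p-values may measure technical spread. Python 3.11.15, pandas 2.3.3, scipy 1.17.1 and Biopython 1.88 were used.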

Additional observations from a re-analysis of the deposited data

How the results depend on the processing

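Fold changes were also shifted by the ratios of group levels between tables. These shifts were smaller than the smallest called change, -0.30 for FD2 in 8 day Col-0 flight, so none of the 50 calls could change direction. At a q-value of 0.01 or less, 20 of the 50 were lost. At that threshold the called members numbered 3 for flight in 4 day Col-0, 0 in 4 day WS and 0 in 8 day WS, and for age 2 in ground Col-0, 6 in flight WS and 1 in ground WS. With a log2 change of 1 or more in size they numbered 0 for flight in 4 day Col-0, 5 in 8 day Col-0 and 0 in 8 day WS, and for age 3 in flight Col-0, 1 in ground Col-0, 6 in flight WS and 1 in ground WS. Without LHCB1 and LHCB2 genes, 2 were left for age in flight Col-0. Counting only loci that overlap no other gene, an alternative chosen after seeing the data, left 10 for flight in 8 day Col-0, and 3 and 2 for age in flight and ground Col-0. Restricting to transcripts of 800 nt or more, also added later, left 0 in 8 day WS flight. Other counts stayed within 1.5 times. A pseudocount of 1 FPKM, which cannot reverse a direction, moved the median for age in flight Col-0 from -1.26 to -1.03. The rise of RCA in 4 day WS flight was 1.08 when rebuilt from the age tables, against 1.16. Multiplying the errors by 1.5 can only weaken a difference, and 0 member differences had passed before. With it, 0 had an unadjusted p under 0.05 by the normal approximation. No paired analysis was possible because the tables hold no value per replicate, and for the same reason no replicate could be left out. Depth is unknown, so the counting error of low levels such as 0.634 FPKM for LHCB2.2 in flight cannot be given.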

Other observations

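The plastid redox gene of roots RFNR2 (AT1G30510), the root counterpart of the leaf ferredoxin reductase gene FNR1, was called although FNR1 was not. It was lower in flight in 4 day Col-0 roots, at 237 FPKM on the ground and 154 in flight in the authors' deposited table (log2 change -0.62 ± 0.23). With age in Col-0 it rose in flight by 0.38 ± 0.19 and fell on the ground, with a log2 change of -0.27 ± 0.20, in the authors' deposited tables, and the difference of -0.65 ± 0.27 had an adjusted p of 0.313 by the normal approximation. Of the 6 root plastid redox genes on the list, the other 5 were called in no table.

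Fructose-bisphosphate aldolase genes of the chloroplast, outside the 49 members, fell with age beside RCA. FBA2 (AT4G38970) fell in all 4 age tables, with log2 changes of -1.14 ± 0.35 in flight Col-0, -0.89 ± 0.40 in ground Col-0, -1.67 ± 0.50 in flight WS and -1.26 ± 0.50 in ground WS in the authors' deposited tables. FBA1 (AT2G21330) fell from 13.1 to 1.25 FPKM in flight WS (-3.39 ± 0.86) and in ground WS with a log2 change of -1.43 ± 0.74, and rose in 4 day WS flight by 1.22 ± 0.60, in the authors' deposited tables. Among regulators, the phytochrome-interacting factor gene PIF5 (AT3G59060) was higher in flight in 4 day Col-0 roots, with a log2 change of 1.75 ± 0.84. It stood at 0.753 FPKM on the ground and 2.52 in flight in the authors' deposited table. With age in flight Col-0 it fell from 2.62 to 0.250 FPKM (-3.39 ± 1.32) in the authors' deposited table. Both comparisons share the 4 day flight libraries, and the counting error of such low levels is not known.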
